A study of Rattus norvegicus with 24 samples.

Results

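Hippocampal gene expression was compared between growth hormone (GH) treated dwarf rats and heterozygous controls after 7 days of treatment, on the 4 arrays titled dw/dw+GH7 and the 4 titled HZ7, which are 8 of the 24 arrays of the series. The dwarf rats were of strain HsdOla:DWARF-dw-4 and homozygous for the dwarf allele (dw/dw), and they received 300 µg GH under the skin from postnatal day 35 for 7 days. The HZ controls carried 1 copy of the allele and received saline over the same days. All of these rats were 42 days old when the tissue was taken, and each array held the RNA of 1 animal. Saline-treated dwarfs of the same age (dw/dw+sal7) and the corresponding groups after 30 days of treatment, at 65 days of age, are given beside the comparison where they help to read it. The comparison therefore joins 2 differences, the genotype and the hormone, and the control is a carrier and not a wild-type rat. The hippocampus was taken whole, so that fewer cells of a type and less RNA per cell cannot be told apart.

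GH is released by the pituitary and acts through the GH receptor, the kinase JAK2 and the transcription factor STAT5, which switches on the feedback inhibitors Cish and Socs2 and, in liver, the hormone IGF-1. IGF-1 and IGF-2 act through the IGF-1 receptor and the PI3K, AKT and mTOR cascade, and their access to it is set by IGF-binding proteins. In the hippocampus the axis is known for its part in neurogenesis, myelination, synapse function and the growth of blood vessels. The comparison asks how far the hippocampal transcriptome of a GH-deficient animal given GH differs from that of a control with its own GH.

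Values are log2 normalized signals, and a difference is dw/dw+GH7 minus HZ7 with its standard error (SE) from a limma fit over all 24 arrays. The arrays detected 44.9% to 51.2% of 22226 probes each. Tests were run on the 11487 probes that at least 4 arrays detected. The 7-day arrays lay on 1 slide and the 30-day arrays on another, so age and slide cannot be told apart. On both slides dw/dw+GH arrays held positions 5 to 8 and HZ arrays positions 9 to 12, so group and position cannot be told apart beyond a linear trend. Markers of hippocampal neurons were measured (5 of 7 for excitatory neurons, 4 of 11 for dentate granule cells, 6 of 8 for CA1 and 6 of 9 for CA3). So were markers of other regions, 8 of 10 for striatum and 6 of 10 for thalamus and habenula. These counts therefore do not show that only hippocampus was taken. Of 10 pituitary genes only Pomc was measured, at 6.30, 6.20, 6.19 and 6.24 in dw/dw+GH7. Nothing in the labels names the litters. The p-values rest on the spread between animals within groups, pooled over all 24 arrays and not over the 8 compared alone.

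No probe passed an adjusted p of 0.05 in limma (0 of 11487, 0%), and the smallest adjusted p was 0.41. At an unadjusted p under 0.05 there were 271 higher probes (2.36%) and 195 lower ones (1.7%), 466 in all (4.06%), where an even spread of p-values would give 574. The 4 and 4 arrays did not overlap for 168 higher probes (1.46%) and 107 lower ones (0.931%), 275 in all (2.39%). The median size of a difference was 0.021 and the median SE 0.040, and only 2 probes differed by more than 0.5. With median scaling in place of quantile normalization the unadjusted split moved to 692 higher and 19 lower, with a median over all probes of 0.039. Every gene below is thus a value with its error and not a call.

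**Figure D1:**
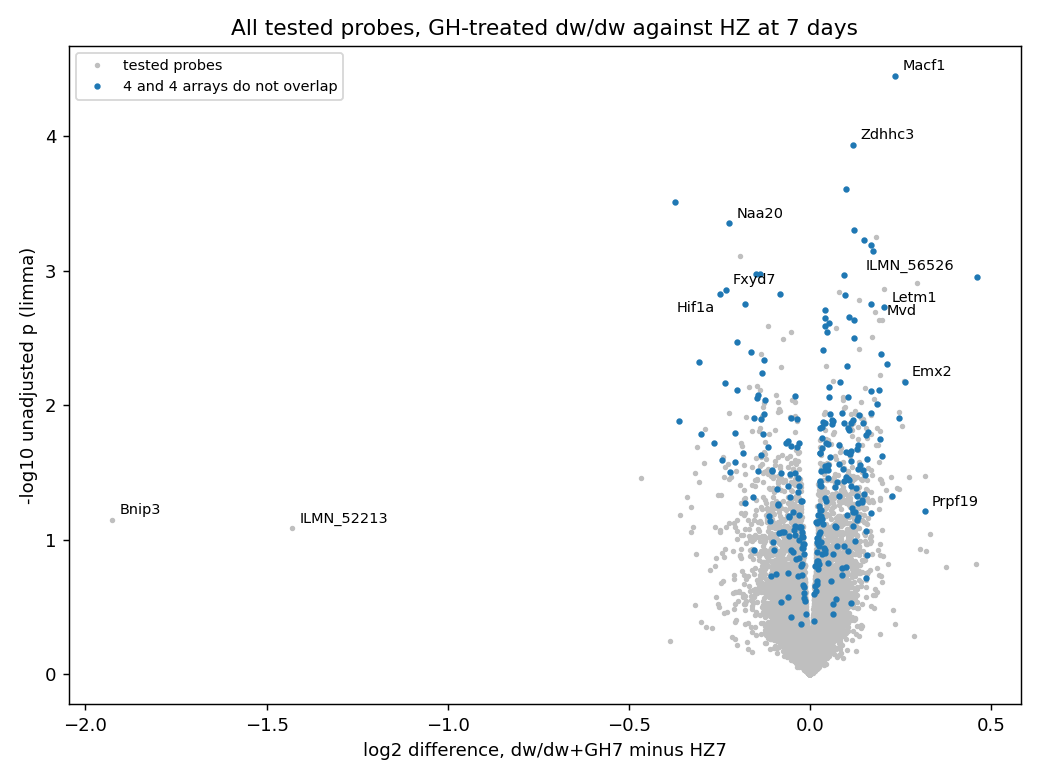
Log2 difference of dw/dw+GH7 minus HZ7 (x) against the -log10 unadjusted limma p (y) for the 11487 tested probes, with blue points for probes whose 4 and 4 arrays did not overlap. The differences are small, Macf1 has the smallest p, and Bnip3 and an unnamed probe lie far to the left with large errors.

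The smallest p of all belonged to Macf1, which encodes a giant protein that links microtubules to actin. Its signal was 11.09, 11.003, 11.08 and 11.09 in the GH-treated dwarfs and 10.96, 10.72, 10.75 and 10.88 in the controls, and 10.94, 10.96, 11.07 and 10.99 in the saline-treated dwarfs. All 4 treated dwarfs lay above all 4 controls, with a difference of 0.24 ± 0.044 (SE), or 1.18-fold (95% interval of the log2 difference 0.14 to 0.33), and an adjusted p of 0.41 in limma. With 1 array left out in turn the difference ran from 0.20 to 0.28. The adjusted p ran from 0.021 to 0.999 and was under 0.05 only without HZ7 replicate 1, the control nearest to the treated dwarfs, whose removal widens the gap by construction. Of the 18 measured genes for microtubule and actin linkers, 14 had a positive difference, where 50.9% of all probes did. The median was 0.067 against 0.00064 over all probes. In dw/dw+sal7 minus HZ7, which shares the control arrays, 12 of the 18 were positive and the median was 0.062. The gene lists were chosen with earlier results of these data known, and their counts include the members named beside them. The count for microtubule and actin linkers thus includes Macf1. Add1, a subunit of the membrane skeleton protein adducin, was second in that list, at 0.083 ± 0.027 (SE).

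Zdhhc3, a Golgi enzyme that attaches palmitate to proteins including GABA-A receptor subunits, was measured at 6.94, 6.97, 6.95 and 6.87 in dw/dw+GH7 and 6.80, 6.83, 6.81 and 6.81 in HZ7. The groups did not overlap and differed by 0.12 ± 0.025 (SE), with an adjusted p of 0.664 in limma. Of the 17 measured genes of protein palmitoylation, 8 had a positive difference, and the median was -0.0023.

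Slc25a29, Letm1 and Sfxn4 were also among the 15 higher genes of smallest p. Slc25a29, a mitochondrial inner-membrane carrier of basic amino acids, stood at 7.42, 7.47, 7.48 and 7.23 in the treated dwarfs and 7.12, 7.25, 7.28 and 7.23 in the controls. The treated dwarf with 7.23 lay among the controls and the other 3 above them, with a difference of 0.18 ± 0.044 (SE) and an adjusted p of 0.79 in limma. Without that animal, dw/dw+GH7 replicate 4, the difference was 0.24 with an adjusted p of 0.013, a rise that follows from removing the treated dwarf nearest to the controls, and without each other array the adjusted p was at least 0.537. Letm1, a protein of the mitochondrial inner membrane needed for potassium and calcium balance, was at 9.17, 9.10, 9.06 and 9.24 against 8.79, 9.01, 8.98 and 8.97, without overlap and with a difference of 0.21 ± 0.057 (SE). Sfxn4, a sideroflexin of mitochondria, differed by 0.11 ± 0.031 (SE). The 24 measured mitochondrial carriers as a list had 15 positive differences and a median of 0.0039.

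Other higher genes of smallest p included some of signalling and metabolism. Dstyk, a dual-specificity kinase, was at 9.48, 9.49, 9.46 and 9.45 in dw/dw+GH7 and 9.31, 9.37, 9.30 and 9.31 in HZ7. These groups did not overlap, and the difference was 0.15 ± 0.037 (SE). Ppip5k1, which makes inositol pyrophosphates, differed by 0.17 ± 0.042 (SE), without overlap, and 14 of 18 measured genes of inositol phosphate metabolism had a positive difference, with a median of 0.019. Amd1, the decarboxylase that feeds polyamine synthesis, differed by 0.14 ± 0.038 (SE), and Gmps, the last enzyme of guanosine monophosphate synthesis, by 0.17 ± 0.051 (SE). Ubap2 differed by 0.17 ± 0.043 (SE), Klhl42 by 0.12 ± 0.035 (SE), Scn8a, a voltage-gated sodium channel, by 0.072 ± 0.021 (SE), Rbm38 by 0.042 ± 0.012 (SE) and Ube2v1, a partner of ubiquitin-conjugating enzymes, by 0.053 ± 0.015 (SE). The adjusted p of these 15 genes in limma ran from 0.41 to 0.881.

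Mvd, an enzyme of the mevalonate branch of cholesterol synthesis, stood at 8.26, 8.48, 8.33 and 8.58 in the treated dwarfs and 8.27, 8.20, 8.18 and 8.23 in the controls, with a difference of 0.19 ± 0.055 (SE). Replicates 2 and 4 of the treated dwarfs were the highest, and replicate 1 lay within the range of the controls. Of 21 measured genes of cholesterol synthesis and its control, 17 had a positive difference and the median was 0.061. The mean centred level of the list ran from 0.049 to 0.13 in the treated dwarfs and from 0.0028 to 0.10 in the controls, so the groups overlapped. The exceptions included Ebp, a sterol isomerase, at 7.24, 7.25, 7.29 and 7.32 against 7.47, 7.42, 7.36 and 7.36, the reverse order without overlap and a difference of -0.13 ± 0.045 (SE), which turned to 0.00084 with median scaling. The median of the same list was -0.00098 in dw/dw+sal7 minus HZ7, which shares the control arrays, and 0.012 in dw/dw+GH30 minus HZ30. None of its members passed, and 1 of 21 was higher and 1 lower at an unadjusted p under 0.05, where 2.36% and 1.7% of all probes were.

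**Figure D2:**
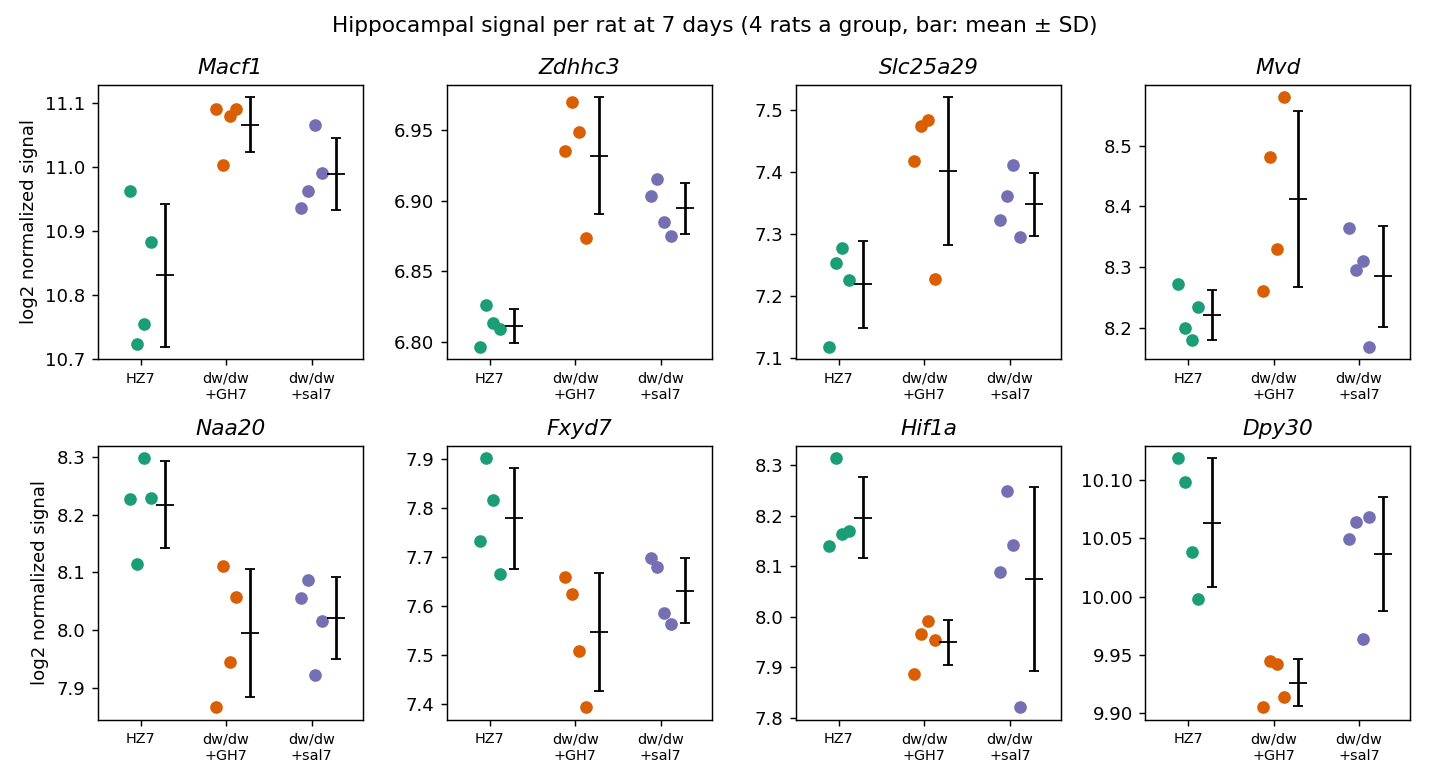
Log2 normalized signal (y) of 8 genes in each rat of HZ7, dw/dw+GH7 and dw/dw+sal7, with the mean and SD of the 4 rats beside the points. Macf1, Zdhhc3, Dpy30 and Hif1a separate the 4 treated dwarfs from the 4 controls, and Naa20 and Fxyd7 do so narrowly. Slc25a29 and Mvd have treated dwarfs within the range of the controls.

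The lower gene of smallest p was Naa20, the catalytic subunit of an N-terminal acetyltransferase. It was measured at 7.87, 8.11, 7.95 and 8.06 in dw/dw+GH7 and 8.23, 8.11, 8.30 and 8.23 in HZ7. The highest treated dwarf and the lowest control were 8.11 each to 2 decimals, and the difference was -0.22 ± 0.053 (SE) with an adjusted p of 0.79 in limma. In the saline-treated dwarfs the signal was 8.06, 8.09, 7.92 and 8.02, so that both dwarf groups lay below the controls. Of 8 measured N-terminal acetyltransferase genes 1 had a positive difference, and the median was -0.023, which turned to 0.012 with median scaling.

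Hif1a, the oxygen-regulated subunit of hypoxia-inducible factor 1, was at 7.89, 7.97, 7.99 and 7.95 in the treated dwarfs and 8.14, 8.31, 8.16 and 8.17 in the controls. No treated dwarf reached the lowest control, and the difference was -0.25 ± 0.067 (SE), with an adjusted p of 0.79 in limma. The saline-treated dwarfs spread over both ranges, at 8.09, 8.25, 8.14 and 7.82. At 30 days the difference between treated dwarfs and controls was 0.095.

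Fxyd7, a brain regulator of the sodium pump, was measured at 7.66, 7.62, 7.51 and 7.39 against 7.73, 7.90, 7.82 and 7.66, with a difference of -0.23 ± 0.062 (SE) and no overlap. Fxyd1, a second regulator of the family, differed by -0.087 ± 0.043 (SE). Of 9 measured sodium pump genes 1 was positive, yet the median was -0.010 and turned to 0.0071 with median scaling and 0.0062 with slide position as a covariate. Dpy30, a core subunit of histone H3 lysine methyltransferase complexes, stood at 9.91, 9.94, 9.94 and 9.91 in the treated dwarfs and 10.12, 10.10, 10.04 and 9.998 in the controls, all 4 below all 4, with a difference of -0.14 ± 0.036 (SE). Tmpo, a protein of the inner nuclear membrane, differed by -0.23 ± 0.077 (SE) and Naca, a chaperone of nascent chains, by -0.13 ± 0.043 (SE), both without overlap.

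The remaining lower genes of smallest p differed by less than 0.2. These were Mok (-0.19), Ttc33 (-0.15), Ankrd24 (-0.082), Klhl35 (-0.12), Stk19 (-0.050), Enkd1 (-0.075), Hmces (-0.16), which protects abasic sites in DNA, Upp1 (-0.13), a uridine phosphorylase, and Chst9 (-0.079), a sulfotransferase. Their adjusted p in limma ran from 0.79 to 0.999.

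Among genes whose arrays did not overlap, the largest differences also included Prpf19, a ubiquitin ligase of the spliceosome. It stood at 8.62, 8.54, 8.51 and 8.68 in dw/dw+GH7 and 8.14, 7.97, 8.49 and 8.48 in HZ7. The controls spanned a wider range than the treated dwarfs, and the difference was 0.32 ± 0.16 (SE). It was 0.40 in saline-treated dwarfs against the same controls, 0.24 in dw/dw+GH30 and 0.36 in dw/dw+sal30 against HZ30. Rps13, a protein of the small ribosomal subunit, had the opposite order in all of these comparisons, at -0.21, -0.29, -0.29 and -0.30. Elovl4, which elongates very long fatty acids and whose dw/dw+GH7 and HZ7 arrays did overlap, was at -0.22, -0.25, -0.26 and -0.20. The comparisons at 1 age share their HZ arrays. Prpf19, Rps13 and Elovl4 were among the genes listed by a scan of all named genes for the same sign in all of these comparisons. Their shared sign thus follows from that choice. Emx2, a homeobox factor of cortex and hippocampus, was at 8.19, 8.33, 8.38 and 8.40 against 8.11, 7.91, 8.07 and 8.16, a difference of 0.26 ± 0.087 (SE), and Ifi27, an interferon-induced gene, at 8.44, 8.47, 8.58 and 8.25 against 8.80, 8.59, 8.69 and 8.73, a difference of -0.26 ± 0.10 (SE). Fbxl20, a synaptic ubiquitin ligase subunit, differed by 0.25 ± 0.089 (SE) and Grin2b, an NMDA receptor subunit, by 0.23 ± 0.11 (SE). For Grin2b the saline-treated dwarfs differed from the same controls by 0.22.

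No gene of the GH and IGF axis itself passed the test, and for Igf2 and Igfbp2 the error was large. Of 29 genes in the list 17 were measured, 11 had a positive difference and the median was 0.0050. Cish, a feedback target of GH, was detected in 2 dw/dw+GH7 arrays and 0 HZ7 arrays, was not well above background in HZ7, and is given no fold. Socs2, the other classical GH target here, was at 6.16, 6.14, 6.12 and 6.11 against 6.12, 6.08, 6.12 and 6.11, near the floor of the scale in both groups. Igf1r, the IGF-1 receptor, differed by 0.015 ± 0.059 (SE), with a 95% interval from -0.11 to 0.14. Igf2, expressed mainly by meninges and choroid plexus in the adult brain, stood at 11.17, 10.47, 10.81 and 11.60 in the treated dwarfs and 12.10, 10.49, 10.38 and 11.78 in the controls. The controls spanned the range of the treated dwarfs, and the difference was -0.17 ± 0.37 (SE), with a 95% interval from -0.94 to 0.60. Igfbp2, a binding protein of the same tissues, was at 8.85, 8.09, 8.43 and 9.18 against 9.87, 8.22, 7.77 and 9.50, a difference of -0.20 ± 0.39 (SE) and an interval from -1.01 to 0.61. Ghr was detected on 1 of the 24 arrays and was not tested, and no probe is named Igf1 or Gfap in the annotation used here.

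In the list of meningeal and fibroblast genes 0 of 17 measured members were positive, where 50.9% of all probes were, and the median was -0.066. The mean centred level of the list ran from -0.050 to 0.36 in the treated dwarfs and from -0.14 to 0.60 in the controls, so the groups overlapped. The median turned to 0.016 without HZ7 replicate 1 and to 0.00060 with median scaling, and it was -0.16 in dw/dw+sal7 minus HZ7 and 0.11 at 30 days. Dcn, a matrix proteoglycan, differed by -0.12 ± 0.18 (SE), Mgp, matrix Gla protein, by -0.19 ± 0.12 (SE), Col1a1, a collagen chain, by -0.039 ± 0.028 (SE) and Ptgds, prostaglandin D synthase, by -0.17 ± 0.30 (SE). The choroid plexus markers had 1 positive of 6 measured and a median of -0.097. Ttr, transthyretin, was at 8.60, 7.99, 8.41 and 8.001 in dw/dw+GH7 and 9.25, 7.63, 7.03 and 10.64 in HZ7, and the control with 10.64 was the highest of the 8. The 3 measured ependymal genes were all negative, with a median of -0.061. The part of these tissues in the differences of Igf2 and Igfbp2 was not tested.

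No red blood cell gene passed the test, and the haemoglobin signals of treated dwarfs and controls overlapped. Hbb was at 13.19, 12.78, 12.95 and 13.02 against 13.07, 12.90, 12.25 and 12.43, a difference of 0.32 ± 0.20 (SE). Hba-a1 differed by 0.31 ± 0.19 (SE) and Hbb-b1 by 0.33 ± 0.19 (SE). Against the same controls the saline-treated dwarfs differed by -0.26, -0.35 and -0.32 for these genes, and at 30 days the treated dwarfs by 0.42, 0.40 and 0.42. Of 7 measured red blood cell genes 5 were positive and the median was 0.017. At an unadjusted p under 0.05 in limma 0 of them were higher and 1 was lower, Epb42. Over all probes 2.36% were higher and 1.7% lower at that threshold. The lowest difference in the list was -0.024.

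No neuronal gene passed the test. The synaptic vesicle list had 17 positive of 22 measured and a median of 0.030, led by Napb, which recycles SNARE complexes. Napb was at 7.18, 7.10, 7.22 and 7.38 against 6.98, 6.77, 7.16 and 6.94. Its difference was 0.26 ± 0.086 (SE), beside 0.29 for saline-treated dwarfs against the same controls. Camk2a, the kinase of excitatory synapses, differed by 0.18 ± 0.072 (SE) and Gabbr1, a GABA-B receptor subunit, by 0.13 ± 0.073 (SE). Grin2c differed by 0.20 ± 0.11 (SE) and Npy, a peptide of interneurons, by -0.15 ± 0.094 (SE). In saline-treated dwarfs against the same controls these were 0.20, 0.23, 0.063 and 0.088 in the same order. In dw/dw+GH7 minus HZ7, 3 of 5 measured excitatory neuron markers were positive, and 5 of 12 for inhibitory neurons and neuropeptides. Of 12 measured glutamate receptor genes 7 were positive, and of 9 GABA receptor genes 6. Jund, an AP-1 factor, stood at -0.24, and 7 of 16 immediate early genes were positive. The list of neurogenesis and proliferation had 9 of 19 positive and a median of -0.00037. In it Sox4 was at 0.086 ± 0.034 (SE), beside 0.034 for saline-treated dwarfs against the same controls. Neurod2 was at 0.10 ± 0.064 (SE), beside 0.11 for saline-treated dwarfs. Hsd11b1, which regenerates active glucocorticoid, differed by 0.14 ± 0.052 (SE). Oxidative phosphorylation had 26 of 57 positive, cytosolic ribosome 29 of 56 and mitochondrial ribosome 22 of 54, with medians of -0.0050, 0.0012 and -0.016. With median scaling 16 of the 39 list medians had the other sign, among them oxidative phosphorylation (0.096), mitochondrial ribosome (0.093), immediate early genes (0.10) and protein palmitoylation (0.068). The myelin list had 5 of 14 positive, and Mbp, myelin basic protein, differed by 0.030 ± 0.13 (SE). Mx1, an interferon-induced gene, was at 7.54, 7.60, 7.40 and 7.63 in the treated dwarfs, 7.55, 7.83, 7.69 and 7.52 in the controls and 7.10, 6.82, 6.86 and 7.54 in the saline-treated dwarfs. Treated dwarfs and controls overlapped, with a difference of -0.11 ± 0.12 (SE), beside -0.57 for saline-treated dwarfs against the same controls.

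**Figure D3:**
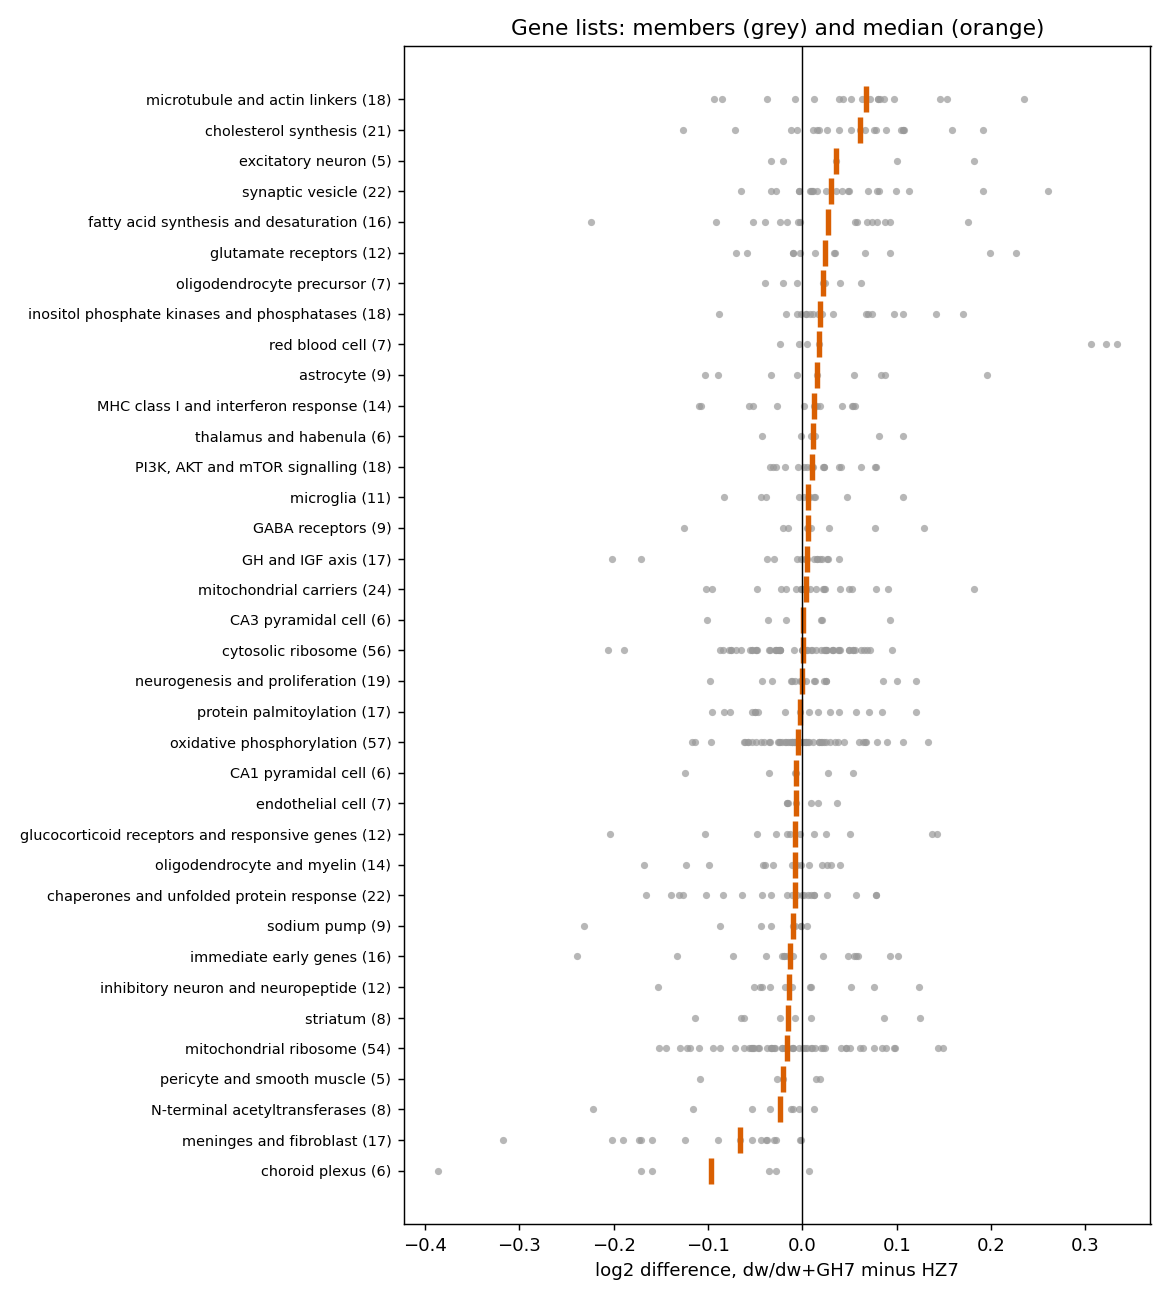
Log2 difference of dw/dw+GH7 minus HZ7 (x) for each measured member of the gene lists with at least 5 measured members (grey) and the list median (orange), with the number measured in brackets. The medians lie between -0.097 for choroid plexus and 0.067 for microtubule and actin linkers, and no member passed the test.

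The 30-day arrays give the same contrast in other animals. No probe changed from 7 to 30 days at an adjusted p of 0.05 (0 of 11487, 0%), 388 probes (3.38%) had an unadjusted p under 0.05, and the smallest adjusted p was 0.067, for an unnamed probe. Of the 15 higher genes 13 had a positive difference at 30 days and of the 15 lower genes 6 had a negative one, 19 of 30 in all, where 53.6% of all probes had the same sign at both durations. Across all probes, which are not independent replicates, Pearson's r between the differences at 7 and 30 days was 0.29 and Spearman's rho 0.13. The named genes of smallest p for the change included Hif1a, at 0.34 ± 0.095 (SE), Dpy30, at 0.19 ± 0.051, Ube2v1, at -0.098 ± 0.021, and Pfdn6, a prefoldin subunit, at 0.23 ± 0.063. Fn3k, which removes sugar from glycated proteins, was at 0.22 ± 0.056 and Tti1, a partner of PI3K-like kinases, at 0.29 ± 0.072.

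**Figure D4:**
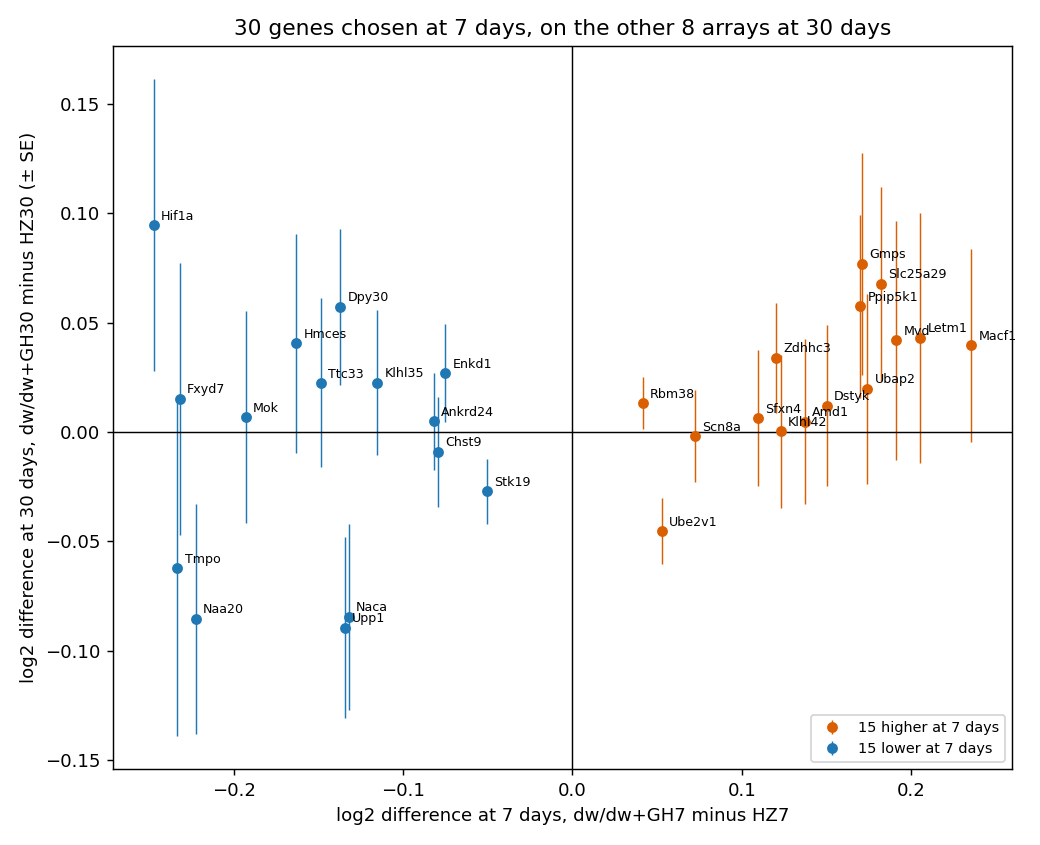
Log2 difference at 7 days (x, dw/dw+GH7 minus HZ7) against that at 30 days (y, dw/dw+GH30 minus HZ30, bars ± SE) for the 15 higher and the 15 lower genes of smallest p at 7 days. Of the higher genes 13 lie above 0 at 30 days, and of the lower genes 6 lie below 0.

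The genes of smallest p at 30 days can be read back at 7 days. For the treated dwarfs against HZ30 these were Mtx1 (-0.20 at 30 days and -0.069 at 7), Ube2q1 (-0.19 and -0.073), Ubr7 (-0.26 and -0.087), Eif2s1 (-0.28 and -0.055), Zcchc9 (-0.19 and -0.014) and Tm4sf1 (0.18 and 0.044). All 6 had the sign of the 30-day difference at 7 days, where 53.6% of all probes did, and the smaller size at 7 days follows from choosing them at 30. With median scaling the 7-day sign turned for Ube2q1 (0.058), Ubr7 (0.051) and Zcchc9 (0.034), and without HZ7 replicate 4 for Eif2s1 (0.011) and Zcchc9 (0.0020).

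The largest difference of any probe was that of Bnip3, a mitochondrial receptor for autophagy and a classical target of hypoxia-inducible factor 1. It and the unnamed probes below were singled out after their values were seen. Bnip3 was at 6.98, 10.32, 6.98 and 7.26 in the treated dwarfs and 10.37, 11.40, 10.19 and 7.28 in the controls. The difference was -1.93 ± 1.01 (SE), with an adjusted p of 0.999 in limma, and each group held both low and high animals. Over all 24 arrays the Bnip3 probe fell at 3 separate levels, with 7 arrays from 6.81 to 7.56, 14 from 10.11 to 10.48 and 3 from 11.09 to 11.40. The lowest level held 3 dw/dw+GH7 arrays, 1 HZ7 and 1 of each other dwarf group, and the highest held only HZ arrays, 1 at 7 and 2 at 30 days. The unnamed probe ILMN_52213 put the same 7 arrays on its lowest level, with 6.03, 8.36, 6.04 and 6.04 in dw/dw+GH7 and 8.40, 9.54, 8.20 and 6.04 in HZ7. That level was background, as none of the 7 arrays detected ILMN_52213 (scanner signal 38.0 to 45.3). All 7 detected the Bnip3 probe (161.5 to 237.8). The unnamed probe ILMN_56526 had 2 levels, and all 4 treated dwarfs (6.59, 6.53, 6.58 and 6.65) lay on the upper and all 4 controls (6.13, 6.11, 6.13 and 6.14) on the lower, with a difference of 0.46 ± 0.12 (SE) and an adjusted p of 0.79. In the other groups both levels occurred, and a fit on only the 8 arrays gave an adjusted p of 0.0021, which became 0.084 with the replicate number as a block on the same 8 arrays. Probes split by a gap of at least 0.2, with at least 3 arrays on each side, numbered 23, 14 and 6 of 11487 when the gap had to fill 30%, 40% or 50% of the range. What sets the levels was not tested.

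**Figure D5:**
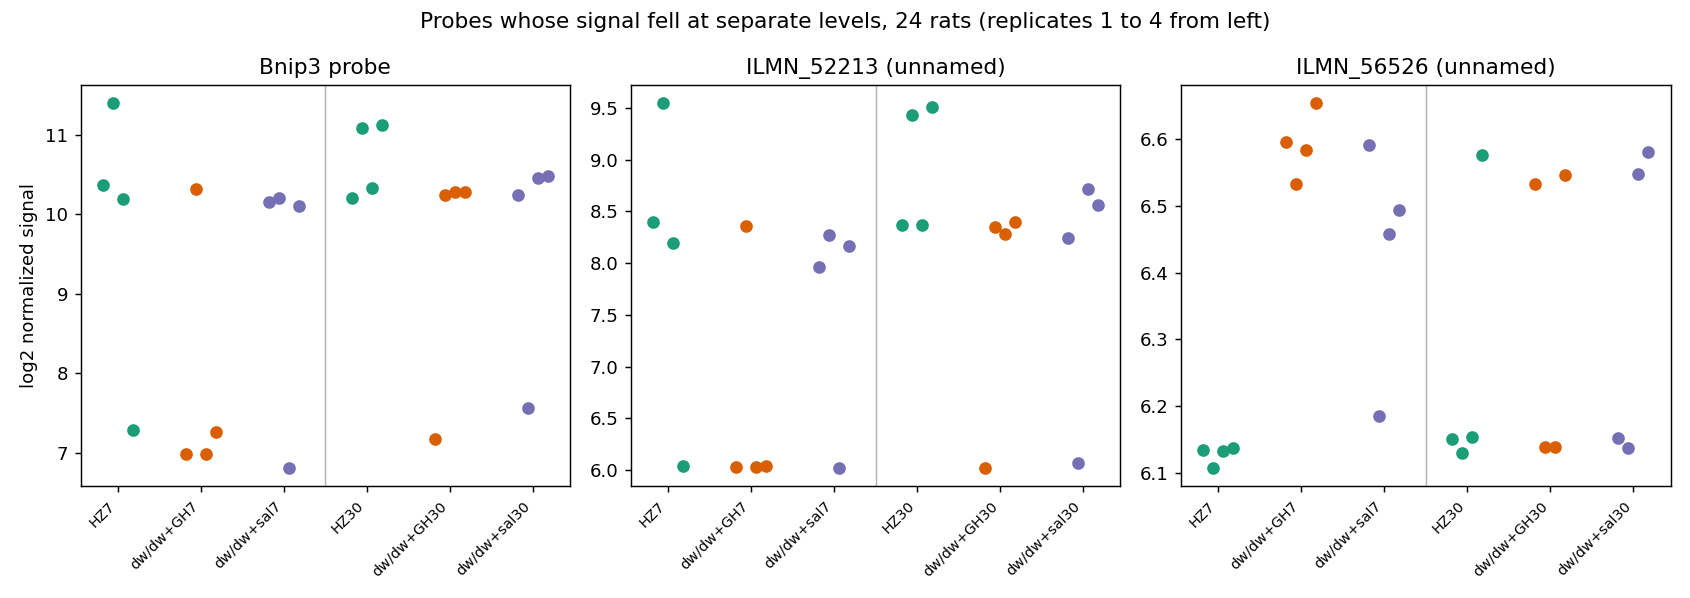
Log2 normalized signal (y) of the Bnip3 probe and of 2 unnamed probes on all 24 arrays by group, replicates 1 to 4 from left. The Bnip3 probe and ILMN_52213 share their 7 low arrays, and ILMN_56526 sets the 4 dw/dw+GH7 arrays apart from the 4 HZ7 arrays but holds both levels in the other groups.

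Because Bnip3 and Hif1a belong to the hypoxia pathway, their promoters are shown (RefSeq, GRCr8, 250 bases before to 50 after the start), Bnip3 at chr1:203154913-203155212 on the minus strand and Hif1a at chr6:98359648-98359947 on the plus strand, with the core ACGTG and its reverse complement CACGT in capitals.
Bnip3: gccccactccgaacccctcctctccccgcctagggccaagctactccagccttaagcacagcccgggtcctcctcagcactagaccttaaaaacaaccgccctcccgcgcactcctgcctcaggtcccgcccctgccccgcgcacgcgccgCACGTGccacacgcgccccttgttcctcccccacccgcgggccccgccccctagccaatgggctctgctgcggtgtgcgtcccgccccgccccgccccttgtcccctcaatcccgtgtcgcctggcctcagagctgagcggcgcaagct
Hif1a: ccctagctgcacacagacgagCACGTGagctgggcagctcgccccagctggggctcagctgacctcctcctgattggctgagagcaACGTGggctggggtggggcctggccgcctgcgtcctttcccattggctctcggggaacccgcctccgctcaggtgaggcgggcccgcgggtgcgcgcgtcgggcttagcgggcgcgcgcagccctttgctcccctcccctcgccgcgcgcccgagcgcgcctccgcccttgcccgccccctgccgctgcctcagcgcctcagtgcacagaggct
The core occurred 2 times in the Bnip3 and 3 times in the Hif1a window, counting both strands, where matches overlap in the palindrome, and 19.3% of all promoters in the table hold it. A second form of the core, GCGTG, was in 29.7% of promoters. Of 27 hypoxia targets with a promoter entry, 19 held the first form and 17 the second, and of 20 cholesterol genes 6 and 13 did. Sterol-response motifs were searched in the promoters of the same 20 cholesterol genes on both strands as well. TCACNCCAC (1.12% of promoters) and a 10-letter form of it (0.125%) were in 0 of them and CANCCCAC (6.79%) in 5. The percentages are over promoter entries, whereas a gene was counted if any of its entries held the motif, so they are not on the same footing. A match is a description and not a binding site. Of 17 measured hypoxia targets, a list made after these values were seen, 10 had a positive and 7 a negative difference, with a median of 0.014 and 0 called. Epas1, the oxygen-regulated subunit of hypoxia-inducible factor 2, differed by 0.080 ± 0.032 (SE), opposite in sign to Hif1a, with an adjusted p of 0.999 in limma.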

How the data were processed

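Whole hippocampal RNA of 24 rats in 6 groups of 4 was measured on Illumina arrays, and source labels gave the group of every array. The deposited scanner table holds, per the file headers, linear average signal intensities with detection p-values for 22226 probes. The authors' series matrix values are also intensities, from steps not given in the sources used here, and served only as an alternative. Per the submitters' processing notes, GenomeStudio 2010.2 was among the tools.

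Signals were background-corrected with normexp on the detection p-values (offset 16), quantile normalized and put on a log2 scale (limma 3.58.1, R 4.3.3). The offset draws differences of dim probes towards 0. Probes detected at 0.05 on at least 4 arrays were tested, 11487 of 22226, of which 8050 carry a gene name. A model with 6 group means was fitted to all 24 arrays (18 residual degrees of freedom, eBayes), two-sided, with Benjamini-Hochberg adjustment at 0.05, and was tested on simulated data. Array number limits the precision. The probe of highest mean stood for a gene.

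The members and the 39 gene lists were chosen with earlier results of these data known. By the rule, the text could name the 15 genes of smallest p in each direction, the 10 largest differences without overlap, up to 4 members of smallest p per list, 6 for the change between durations, 6 each for both 30-day comparisons and a fixed set, 191 genes in all. To keep the text short, 2 members per list were kept by p alone, which left 125 genes. Bnip3 and 2 unnamed probes were added after their values were seen. Alternatives covered normalization, filter, offset, samples, weights, variance prior, covariates, replicate block and leaving out each array. Deviations of same-numbered dw/dw+GH7 and HZ7 arrays correlated at 0.15 to 0.36 in all 4 pairs (other pairs -0.25 to -0.0036). Same-numbered dw/dw+sal7 and HZ7 arrays did not stand out, at -0.28 to 0.032 (other pairs -0.37 to 0.36). For dw/dw+GH30 and HZ30 the values were 0.087 to 0.49 (other pairs -0.47 to 0.43). The correlations come from the data, and the labels name no shared litter or day. What a replicate number marks was not tested.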

Additional observations from a re-analysis of the deposited data

Results flagged for a closer look

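In a group of 4, an animal was singled out when its gap to the nearest other, divided by the range, exceeded Dixon's 95% critical value, which chance gives in about 1 of 20 groups. Over the 191 genes of the naming rule and the 3 added probes, 19 of 388 groups (4.9%) met this, close to that share. Those among the genes and probes named here are given as log2 signals. In the treated dwarfs and the controls they were Macf1 in dw/dw+GH7 replicate 2 (lowest, 11), Dstyk in HZ7 replicate 2 (highest, 9.37), Hif1a in HZ7 replicate 2 (highest, 8.314), Uqcrfs1 in dw/dw+GH7 replicate 4 (highest, 11.58), Grin2b in dw/dw+GH7 replicate 4 (highest, 7.387), Cplx1 in HZ7 replicate 4 (lowest, 6.541), Sostdc1 in HZ7 replicate 4 (highest, 6.718), Npy in dw/dw+GH7 replicate 1 (highest, 8.934), Tsc1 in HZ7 replicate 1 (lowest, 6.09), Col1a1 in dw/dw+GH7 replicate 4 (highest, 6.205), Dcn in HZ7 replicate 3 (lowest, 8.597), Mcee in HZ7 replicate 4 (highest, 8.775), Bnip3 in dw/dw+GH7 replicate 2 (highest, 10.32), ILMN_52213 in dw/dw+GH7 replicate 2 (highest, 8.356) and ILMN_56526 in HZ7 replicate 2 (lowest, 6.108). Bnip3 and ILMN_52213 single out the same treated dwarf, and ILMN_56526 a control.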

How the results depend on the processing

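The count of called probes was 0 in limma and stayed 0 except for 1 with only the 8 arrays compared (ILMN_56526), and from 0 to 1 with 1 array left out (Slc25a29 without dw/dw+GH7 replicate 4, Macf1 without HZ7 replicate 1). The unadjusted count of 466 of 11487 probes moved to 711 with median scaling and 721 with the detected share as a covariate, and from 386 to 587 with 1 array left out. Without a filter on dim probes it was 939, but of all 22226 probes, so that count is not on the same footing. The change from 7 to 30 days had 1 called probe with the detected share as a covariate, and 0 to 1 with 1 array left out. With the replicate number as a block, 0 probes were called and 543 had an unadjusted p under 0.05, and on only the 8 arrays, an alternative chosen after seeing the data, 0 and 682. On only the 8 arrays the block thus removed the 1 call, that of ILMN_56526 (adjusted p 0.0021 in limma without and 0.084 with the block), and it changed no other call. Over all 191 genes the naming rule allows and the 3 added probes, 110 of 4055 differences under 21 alternatives turned in sign, in 66 of 194 genes, and 36 of them did so with median scaling, which moves the median of all probes by 0.039. For the 30 genes of smallest p, 0 of 630 turned, which their choice by small p favours. Among the genes named here 60 of 2677 did. Of 39 list medians, 16 turned in sign with median scaling, 12 with the slide position and 10 with the detected share as a covariate, 7 with array weights, and 5 to 9 with 1 array left out. With median scaling, the sign turned for Ebp 0.00084, Atp5f1a 0.00032, Mrps23 0.010, Mrpl55 0.0027, Slc25a17 0.017, Fn3k 0.041, Xbp1 0.028, Tti1 0.046, Ppt2 0.011, Penk 0.0037, Ube2q1 0.058, Vapb 0.065, Ubr7 0.051, Naa38 0.024, Mx1 0.021, Sema5a 0.0049, Dcn 0.0013, Zcchc9 0.034 and Mcee 0.11. With the slide position as a covariate, the sign turned for Gabrb2 -0.0071, Socs2 -0.013, Calb2 0.010, B2m -0.013, Mx1 0.021, Pdgfra -0.098, Cldn11 0.0051, Dcn 0.073, Igf2 0.043, Zcchc9 0.042, Mcee 0.022 and Mbp -0.038. With the detected share as a covariate, the sign turned for Igf1r -0.0099 and Pomc -0.0095. With array weights, the sign turned for Mbp -0.0022 and Pomc -0.0014. With the authors' series matrix values, the sign turned for Pomc -0.011. With 1 array left out in turn, these differences spanned 0: Sema5a -0.039 to 0.0019, Pdgfra -0.00059 to 0.15, Eif2s1 -0.10 to 0.011, Cldn11 -0.24 to 0.029, Tek -0.0012 to 0.016, Ttr -0.92 to 0.28, Ptgds -0.45 to 0.060, Igfbp2 -0.56 to 0.14, Igf2 -0.44 to 0.13, Zcchc9 -0.039 to 0.026, Mcee -0.062 to 0.021, Igf1r -0.032 to 0.069, Mbp -0.070 to 0.20 and Pomc -0.022 to 0.016. The causes were not tested. Dim probes close to background limit what a difference can show.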
